A study of Homo sapiens with 10 samples.

Results

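The binding of the retinoic acid receptor RARα was compared with that of the coactivator MAML3 in vehicle-treated SK-N-SH cells, an established human neuroblastoma line. The 4 untreated peak lists, 2 per antibody, were merged wherever peaks overlapped by at least 1 bp, which gave 7131 sites. A separate merge of all 8 lists of the series gave 10581. A site was called shared where both RARα lists and both MAML3 lists held it, and 106 sites (1.49% of the untreated sites) were. Another 41 sites (0.575%) were in both RARα lists and in no MAML3 list, and 1148 (16.1%) were in both MAML3 lists and in no RARα list. The remaining 5836 sites were held by other combinations, mostly by 1 list alone.

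All cells were kept in charcoal-stripped serum for 24 h before treatment. The untreated groups (UT) then received vehicle, and the groups labelled RA received 1 µM retinoic acid. Chromatin was precipitated with an antibody from Bethyl Laboratories against MAML3 or with the C-20 antibody from Santa Cruz against RARα, and each of the 4 combinations of antibody and treatment had 2 lists. One cell line was used, and the labels do not say that replicates were separate cultures. The names of the untreated MAML3 lists differ in lane but have one library number and one index tag, and whether they stem from separate libraries is not stated. The second untreated RARα list is tagged as merged.

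RARα is a nuclear receptor that binds DNA as a heterodimer with a retinoid X receptor. Without ligand such heterodimers can sit on their elements with corepressors, and retinoic acid exchanges these for coactivators. MAML3 belongs to the mastermind-like family, whose members are best known as coactivators of Notch with the DNA-binding protein RBPJ and which do not bind DNA by themselves.

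The lists differed in length, and a site can be missing from a list because that list is short. RARα UT 1 held 1321 peaks and RARα UT 2 held 251. MAML3 UT 1 held 2222 peaks and MAML3 UT 2 held 6759. Read depth is unknown, because peak lists carry no read counts. Column 5 of each list is the authors' score for the peak, and it was used only as a percentile rank within its own list, where 100 is the highest peak. A site took the rank of its highest peak. With 2 lists against 2, no two-sided exact permutation test could give a p below 0.33, so shares are given with 95% Wilson intervals, which cover counting error only.

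Most sites that both RARα lists held also had a MAML3 peak. Of these 189 sites, 106 were in both MAML3 lists (56.1%, interval 49 to 63%), 42 were in 1 MAML3 list (22.2%, interval 16.9 to 28.7%) and 41 were in none (21.7%, interval 16.4 to 28.1%). Over all 7131 untreated sites only 229 were in no MAML3 list, so a larger part of them than of the 189 had a MAML3 peak. Of the 7131, 1940 were in both MAML3 lists and 189 in both RARα lists. Another 4509 (63.2%) were in MAML3 UT 2 alone, so most merged sites held MAML3 by the make-up of the lists. The share of MAML3 sites with RARα was small. Of 1940 sites in both MAML3 lists, 106 were in both RARα lists (5.46%, interval 4.54 to 6.57%), 686 were in 1 RARα list (35.4%) and 1148 were in none (59.2%). The short second RARα list set much of that count: 672 sites were in both MAML3 lists and in RARα UT 1 but not in RARα UT 2. Without RARα UT 2, 778 sites were shared and 204 were RARα sites without MAML3. When all 4 lists were cut to their 251 highest peaks, 25 sites were shared and 77 were RARα sites without MAML3. The share of RARα sites with MAML3 was then 22.9%. The cut kept all of RARα UT 2 but 251 of the 6759 peaks of MAML3 UT 2. A RARα site whose MAML3 peak fell below the cut counts there as without MAML3.

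**Figure D1:**
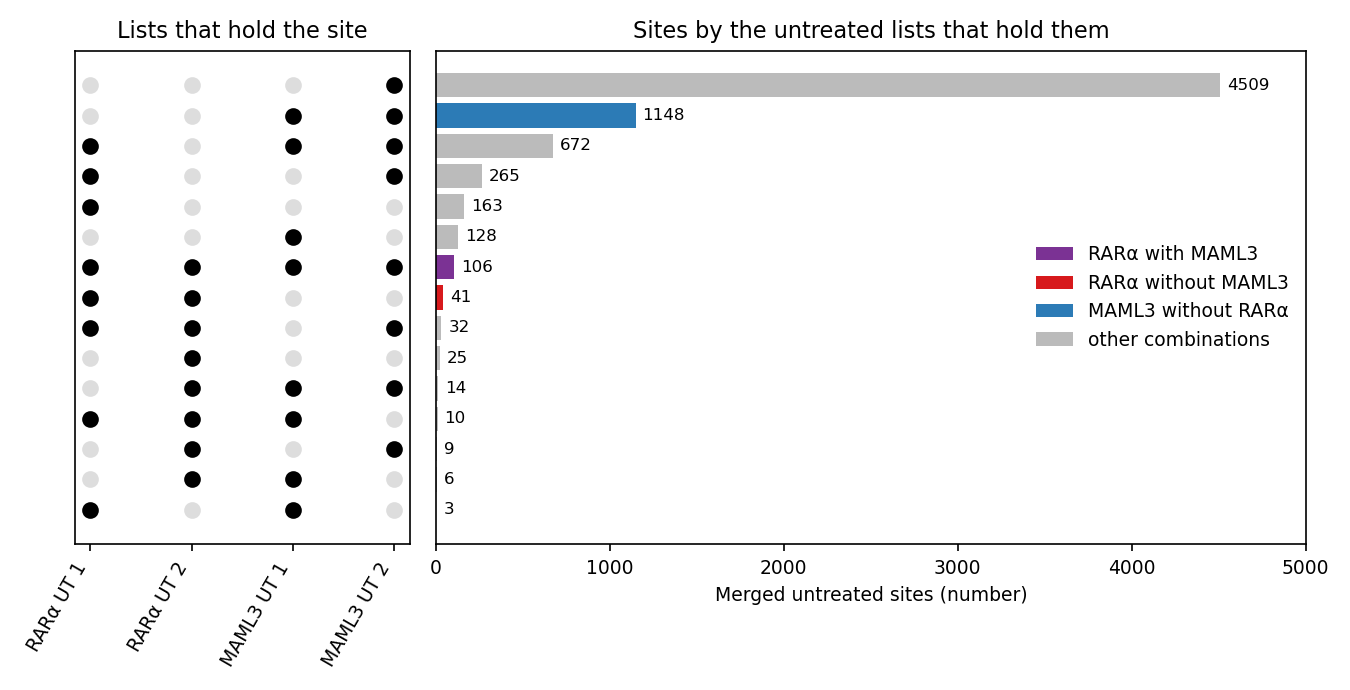
Number of merged untreated sites for each combination of the 4 untreated lists. Filled dots mark the lists that held the sites and bars give the number of sites. The bar for MAML3 UT 2 alone reaches 4509 sites, against 1148 for both MAML3 lists without RARα, 106 for all 4 lists and 41 for both RARα lists without MAML3.

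The boundaries of the classes lay close to some sites. In all 106 shared sites each RARα list overlapped each MAML3 list directly, and the smallest such overlap was 27 bp, at chr7:100995647-100996054 (hg19, as are all coordinates here). The RARα site without MAML3 that lay nearest to a MAML3 peak was chr14:61929563-61929871, at a distance of 523 bp. The MAML3 site without RARα nearest to a RARα peak was chr5:14410649-14410966, 75 bp away.

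Shared sites stood high in RARα UT 1 and in both MAML3 lists, but not in RARα UT 2. Their median percentile was 89.8 in RARα UT 1, 54.1 in RARα UT 2, 77.4 in MAML3 UT 1 and 90.3 in MAML3 UT 2. Shared sites held 112 of the 251 peaks of RARα UT 2, against 106 of the 6759 of MAML3 UT 2. So large a part of a short list cannot have a median near its top, and medians of unlike lists are not compared. RARα sites without MAML3 had medians of 80.2 in RARα UT 1 and 65.7 in RARα UT 2. They were thus below the shared sites in the first RARα list and above them in the second. MAML3 sites without RARα had medians of 43 in MAML3 UT 1 and 77.5 in MAML3 UT 2, below the shared sites in both. These ranks come from the lists that define the classes and are a description only.

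**Figure D2:**
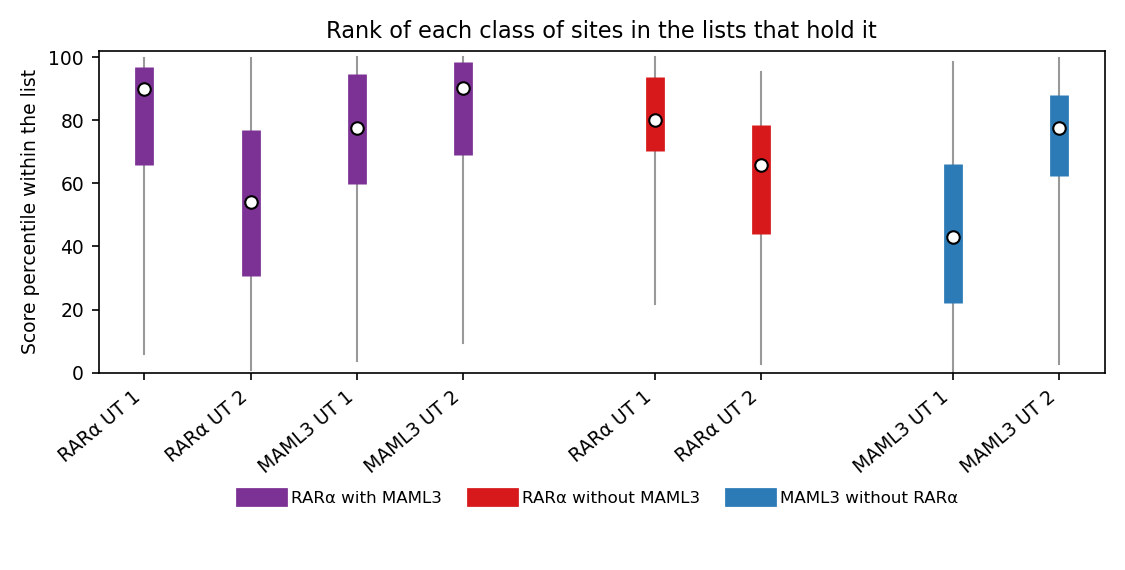
Score percentile within each list for the sites of the 3 classes. Points are medians, thick bars run from the first to the third quartile and thin lines from the lowest to the highest site. Shared sites have their highest median, 90.3, in MAML3 UT 2 and their lowest, 54.1, in RARα UT 2.

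The share of RARα sites with MAML3 followed the RARα score in RARα UT 1 and not in RARα UT 2. With the sites of RARα UT 1 divided by score into 4 equal groups, from the lowest to the highest 41.5%, 57.3%, 68.7% and 73.4% were in both MAML3 lists, and 24.1%, 16.4%, 12.7% and 9.91% were in neither. In RARα UT 2, with 60 or 61 sites per group, the corresponding shares with both MAML3 lists were 52.5%, 49.2%, 48.3% and 47.5%. The 16 sites of a chromosome X array, described below, were all at percentile 88 or above in RARα UT 2 and so lay in its highest group. Only 4 of those 16 were shared sites, and the shares were not taken without the array. For MAML3 the order was the same in both replicates at its ends. In the lowest of 4 such groups of MAML3 UT 1, 83.5% of sites had no RARα peak, against 31.2% in the highest, and in MAML3 UT 2 these shares were 96.9% and 56.1%.

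The shared site with the highest mean rank was chr7:18737747-18738396. Its percentile was 99.5 in RARα UT 1, 90.8 in RARα UT 2, 99.7 in MAML3 UT 1 and 99.9 in MAML3 UT 2. The second was chr15:78963957-78964620, with 99.2, 87.3, 99.2 and 99.6 in the same order of lists. The third was chr4:174990899-174991549, with 98.3, 80.1, 99.9 and 99.9. All 3 ranked lowest in RARα UT 2. The site chr11:62608938-62609408, eighth by mean rank, went the other way, with 99.1 and 96.8 in the RARα lists and 82.3 and 84.3 in the MAML3 lists. All 10 shared sites with the highest mean rank were in all 4 lists made after retinoic acid. These 10 were picked by rank. Of all shared sites, 73.6% were in both RARα RA lists and 95.3% in both MAML3 RA lists, against 7.35% and 56.9% of all untreated sites.

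Some shared sites lay near each other. With neighbours under 100 kb apart counted as 1 run, 19 of the 106 shared sites fell in 7 runs. A run of 3 sites covered chr4:174851399-174991549, with a median percentile of 99.9 in both MAML3 lists, 97.7 in RARα UT 1 and 58.8 in RARα UT 2. A run of 4 sites at chr17:18965162-19093705 showed the opposite order, with medians of 97.5 and 96 in the RARα lists and 67.2 and 63.8 in the MAML3 lists.

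The highest RARα ranks and the highest MAML3 ranks did not always fall on the same shared sites. Across the 106 shared sites, the ranks in RARα UT 2 and MAML3 UT 2 ran in opposite directions (Pearson r = -0.46, Spearman rho = -0.38), and without the chromosome ends and the chromosome X array the values were -0.35 and -0.27. For RARα UT 2 and MAML3 UT 1 they were -0.11 and -0.15. For RARα UT 1 r was 0.11 with MAML3 UT 1 and 0.03 with MAML3 UT 2, and rho was 0.12 and 0.03. Between replicates, r was 0.39 and rho 0.59 for RARα, and r was 0.52 and rho 0.79 for MAML3. Sites of one library share its depth and peak calling, so these coefficients are descriptions and carry no p. The 14 shared sites at percentile 90 or above in RARα UT 2 had medians of 66.3 and 59.4 in the MAML3 lists. Of these 14, 4 lay in the chromosome X array and 2 at chromosome ends, and their medians were not taken without those sites. At percentile 90 or above in both MAML3 lists were 33 shared sites, none in the array or at the ends. Their median in RARα UT 2 was 47.

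**Figure D3:**
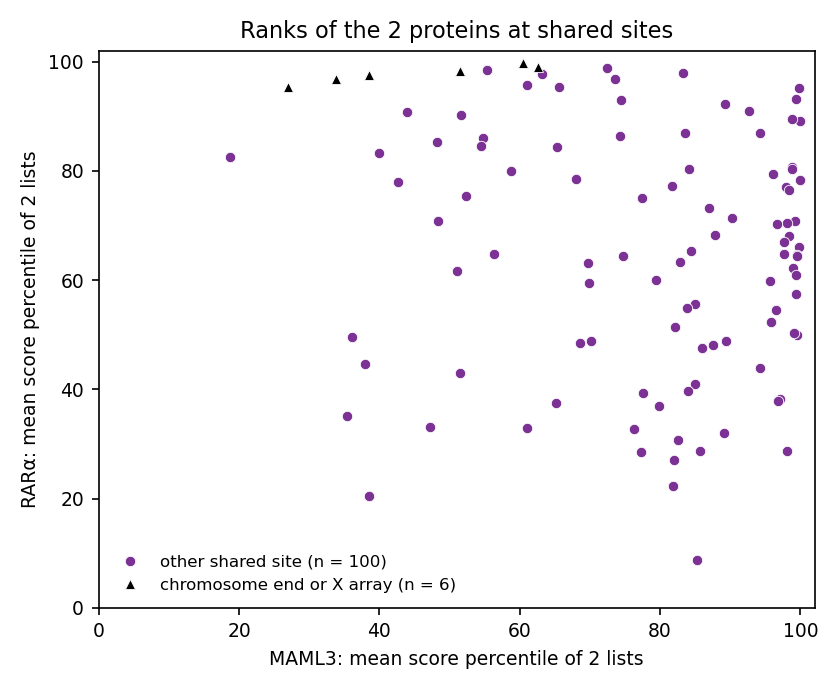
Mean score percentile of the 2 RARα lists against that of the 2 MAML3 lists at the 106 shared sites. Triangles mark the 6 sites that lie in the chromosome X array or less than 100 kb from the first or last listed peak of a chromosome, and circles the other 100. The triangles sit at the top of the RARα axis with middle to low MAML3 ranks.

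The distance between the peak centres of both proteins at shared sites is limited by the rule that their peaks overlap, and it is given as a description. The median distance between centres was 43.2 bp for RARα UT 1 with MAML3 UT 1, 32.2 bp for RARα UT 1 with MAML3 UT 2, 51.5 bp for RARα UT 2 with MAML3 UT 1 and 45 bp for RARα UT 2 with MAML3 UT 2. The replicates of RARα lay 45.2 bp apart and those of MAML3 25.8 bp apart. Centres of the 2 proteins thus differed by about as much as centres of the RARα replicates. Between 83% and 90.6% of sites had centres within 100 bp, and the largest distance was 296 bp. Centres were used because the lists carry no summit. Merged shared sites had a median width of 527.5 bp, against 350 bp for RARα sites without MAML3 and 404 bp for MAML3 sites without RARα. A shared site joins peaks of 4 lists, which widens it by construction. Within RARα UT 1 alone, peaks had a median width of 400 bp at shared sites and 342 bp at RARα sites without MAML3. In RARα UT 2 these widths were 237 and 234 bp.

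**Figure D4:**
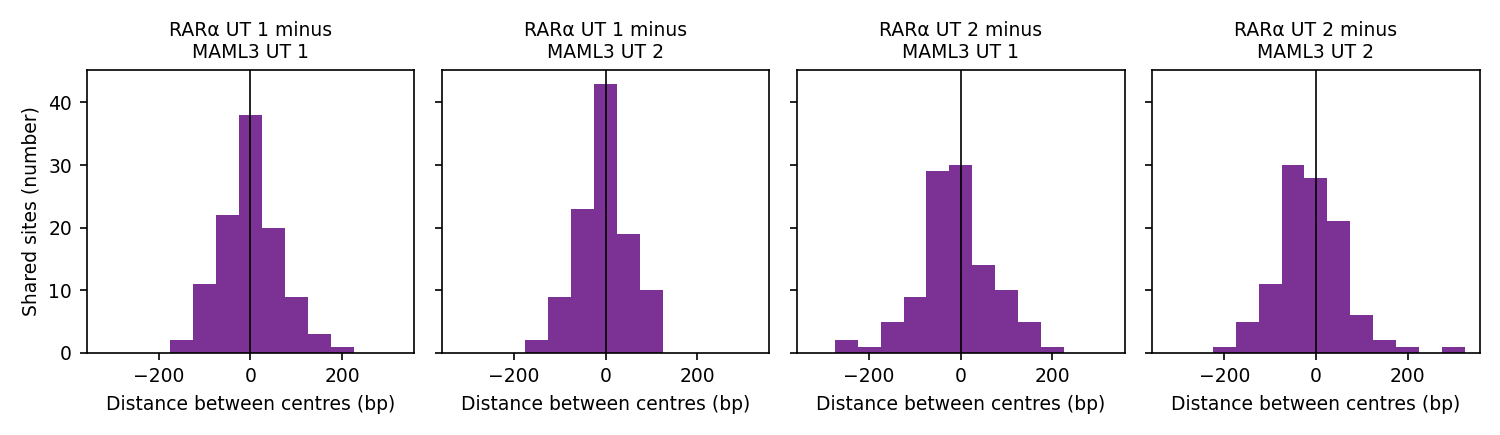
Distance from the MAML3 peak centre to the RARα peak centre at the 106 shared sites, in base pairs, for each pair of an untreated RARα list and an untreated MAML3 list. Bars count sites in bins of 50 bp, and the vertical line marks 0. The medians lie between -16 and -0.75 bp.

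RARα sites without MAML3 had few close neighbours. Another untreated site lay within 10 kb of 17.1% of them, against 43.4% of shared sites, 39.2% of MAML3 sites without RARα and 32.3% of all untreated sites. Their median distance to the nearest MAML3 peak was 390122 bp. Chromosomes 17 and 19 held 10 of the 41 (24.4%, interval 13.8 to 39.3%), against 9.43% of shared sites (5.21 to 16.5%) and 3.22% of MAML3 sites without RARα (2.35 to 4.41%). Chromosomes 2, 4, 13 and 18 held 1 of the 41 (2.44%, interval 0.432 to 12.6%) and 8.49% of shared sites (4.53 to 15.4%). They held 23.1% of MAML3 sites without RARα (20.7 to 25.6%). These chromosomes were grouped after the counts were seen and sites are not replicates, so the intervals do not serve to compare the classes. The share of all untreated sites on these chromosomes was not taken. The second RARα list itself had 12% of its peaks on chromosomes 17 and 19, against 5.75% in RARα UT 1 and 2.97% and 3.15% in the MAML3 lists. On chromosomes 2, 4, 13 and 18 it had 9.96%, against 18.6% in RARα UT 1 and 22.1% and 23.1% in the MAML3 lists. The part of that list in the class differences was not tested.

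Of the single sites in this class, chr17:45973206-45973666 ranked highest outside chromosome X, with percentiles of 99.9 in RARα UT 1 and 92 in RARα UT 2, and the nearest MAML3 peak was 85898 bp away. It was in both RARα lists after retinoic acid and in neither MAML3 list. The site chr1:149223800-149224267 had percentiles of 96.7 and 89.2, and chr3:25469563-25470111 had 98.3 and 81.7. The last of these differed from most of its class, because it was in all 4 lists made after retinoic acid, although the nearest untreated MAML3 peak was 29795 bp away. The lowest ranked of the 41 was chr20:44486022-44486363, with 72.2 in RARα UT 1 and 3.59 in RARα UT 2.

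A regular array on chromosome X, singled out after its values were seen, held 3 of the RARα sites without MAML3 and 4 of the shared sites. It ran from 114960310 to 115004709 and comprised 16 sites, with starts a median of 3000 bp apart (range 2250 to 3100 bp). It was sought only among sites with an untreated RARα peak. Both RARα lists held all 16, with percentiles from 93.9 to 99.3 in RARα UT 1 and from 88 to 98 in RARα UT 2. MAML3 UT 1 held 6 of the 16 and MAML3 UT 2 held 11, at percentiles up to 70.4 and 59.4. Neighbouring units of one array were thus sorted into different classes by whether a MAML3 peak was called in each list. Regions within 100 kb of the first or last listed peak of a chromosome held 2 further shared sites and 3 further RARα sites without MAML3. Without the array and those ends, 100 shared sites and 35 RARα sites without MAML3 were left. No MAML3 site without RARα lay at those ends, and by the search used none could be in the array.

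The lists made after retinoic acid were not used to form the classes and were read separately for each class. Shared sites were found again with both antibodies: 78 of 106 (73.6%, interval 64.5 to 81%) were in both RARα RA lists and 101 (95.3%, interval 89.4 to 98%) in both MAML3 RA lists. Over all untreated sites these shares were 7.35% and 56.9%. Of those sites 63.2% were in MAML3 UT 2 alone, so they are not like a class held by both lists of each antibody. RARα sites without MAML3 were found again in both RARα RA lists at 31 of 41 (75.6%, interval 60.7 to 86.2%), but 5 of 41 (12.2%, interval 5.32 to 25.5%) were in both MAML3 RA lists and 28 (68.3%) were in neither. The share of this class in both MAML3 RA lists, 12.2% with the full lists, was 36.1% without MAML3 UT 2 and 21.1% without RARα UT 2. It was 7.46% without RARα UT 1 and 11.8% without MAML3 UT 1. When all 4 untreated lists were cut to 251 peaks it was 62.3%, but that setting counts a site whose MAML3 peak fell below the cut as without MAML3. Without RARα UT 2 the share in both RARα RA lists was 36.9% for shared sites and 31.4% for RARα sites without MAML3.

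After retinoic acid most MAML3 sites without RARα were again MAML3 sites: 960 of 1148 (83.6%, interval 81.4 to 85.7%) were in both MAML3 RA lists, 41 (3.57%, interval 2.64 to 4.81%) were in both RARα RA lists and 924 (80.5%) were in neither RARα RA list. The last share was close to the 82.5% of all untreated sites in neither RARα RA list, and nothing about the class is read from it. The share in both RARα RA lists was below the 7.35% of all untreated sites, but it moved with the lists used. It was 13.7% without RARα UT 1 and 1.38% without MAML3 UT 1. With the untreated lists cut to 251 peaks it was 44.8%. The share over all sites was not recomputed under those settings, so the place of the class beside it is known only for the full lists. The 41 sites that both RARα RA lists held had median percentiles of 63.8 and 84.4 in the untreated MAML3 lists, against 39.5 and 75.4 for the 924 that neither held. The highest ranked site of the class, chr15:37513259-37514258, had percentiles of 98.5 in MAML3 UT 1 and 99.7 in MAML3 UT 2. It lay 412288 bp from the nearest untreated RARα peak and was in RARα RA 1 but not in RARα RA 2. The next, chr7:133456450-133456996, had 97.7 and 99.3 and was in neither RARα RA list. All of the 10 highest ranked sites of the class were in both MAML3 RA lists. Of these 10, 2 were in RARα RA 1 and 3 in RARα RA 2, and none was in both. Over the whole class, 15.9% were in 1 RARα RA list and 3.57% in both, so nothing is read from that absence.

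**Figure D5:**
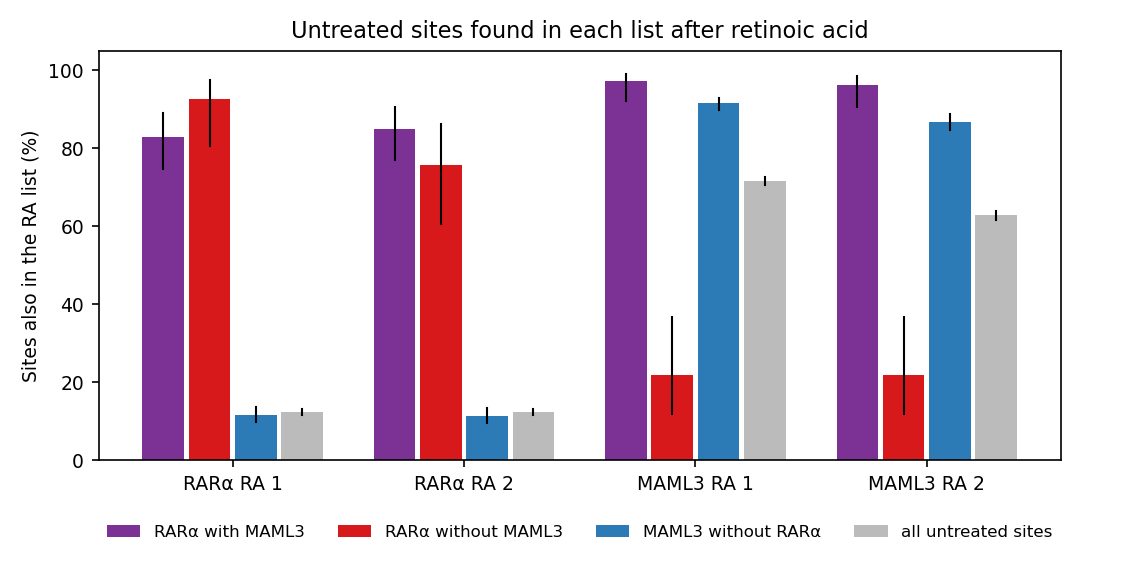
Percentage of the sites of each untreated class found in each of the 4 lists made after retinoic acid, with 95% Wilson intervals as vertical lines. Grey bars give all 7131 untreated sites. RARα sites without MAML3 reach 92.7% and 75.6% in the RARα RA lists and 22% in each MAML3 RA list.

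At shared sites, RARα rank in the untreated cells went with presence in the RARα RA lists. The 78 shared sites in both RARα RA lists had median percentiles of 92.8 and 65.7 in the untreated RARα lists, and the 6 in neither had 58.2 and 20.9. Those 6 sites were all in both MAML3 RA lists, as were 95.3% of all shared sites. One of them, chr10:90103872-90104421, had 68 and 8.37 in the RARα lists but 95.2 and 99 in the MAML3 lists. Only 2 shared sites were in neither MAML3 RA list. One was a unit of the chromosome X array, and the other was chr11:83575482-83576187, with 96.6 and 98.6 in the untreated MAML3 lists and present in both RARα RA lists. RARα sites without MAML3 were less ordered. In RARα UT 1 the 31 in both RARα RA lists had a median of 87.7, the 7 in 1 list 66 and the 3 in neither 75.1. In RARα UT 2 these medians were 68.1, 65.7 and 6.37.

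An intermediate class of 672 sites was in RARα UT 1 and both MAML3 lists but not in RARα UT 2. Its median percentile was 55.2 in RARα UT 1, 69.7 in MAML3 UT 1 and 90.7 in MAML3 UT 2. After retinoic acid 31.1% of these sites were in both RARα RA lists, between the 73.6% of shared sites and the 3.57% of MAML3 sites without RARα, and 95.8% were in both MAML3 RA lists. The 32 sites in both RARα lists and MAML3 UT 2 but not MAML3 UT 1 had a median of 44 in MAML3 UT 2, and 78.1% were in both RARα RA lists and 68.8% in both MAML3 RA lists.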

How the data were processed

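Chromatin immunoprecipitation and sequencing was done for RARα and MAML3 in SK-N-SH cells, with and without retinoic acid. The authors deposited 1 list of peaks per sample, and 2 input samples came with no list. Each list gives chromosome, start, end, a MACS peak name and a score, on the hg19 build. Per the submitters' processing notes, BWA 0.5.9, bedtools and MACS were used. How peaks were filtered, against which control, and with what each list was intersected: not given in the sources used here. The score deposited by the authors has no stated unit and was ranked only within its list, with ties averaged.

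Peaks were merged and classified with Python 3.11.15, numpy 2.4.6, pandas 2.3.3 and scipy 1.17.1, and the classification was tested on simulated lists. Sites named in the text come from the 10 of each class with the highest mean percentile over the untreated lists that hold them; sites outside that rule (class boundaries, runs, the chromosome X array, the lowest ranked site and those missing after retinoic acid) were chosen after their values were seen. The classes and comparisons were chosen with earlier results of these data known.

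No annotation or genome of hg19 was used here, so no gene is assigned to a site and no sequence is printed. The planned shares at transcription starts, the genes of each class, the gene lists and the motif counts were not run. Coordinates are 1-based. Alternatives were other overlaps, stricter score thresholds, lists of equal length, each list left out, and the outer 100 kb and chains of RARα sites left out.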

Additional observations from a re-analysis of the deposited data

How the results depend on the processing

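Of 133 alternative values for 13 results, 61 moved beyond a set tolerance and 72 did not, and the cause was not tested. The tolerance was 1.5 times for a count, the 95% Wilson interval of the reported value for a share and 1 SD between the medians of the lists for a percentile, so it is wide for the small RARα class and narrow for the large MAML3 class. Leaving out each untreated list in turn gave 116 to 778 shared sites, 51 to 204 RARα sites without MAML3 (RARα-only) and 1162 to 5661 MAML3 sites without RARα (MAML3-only). The share of RARα sites with MAML3 was then 49.2 to 73%. The share in both RARα RA lists was 36.9 to 74.6% for shared, 31.4 to 77.8% for RARα-only and 1.38 to 13.7% for MAML3-only sites, and that in both MAML3 RA lists 87.9 to 95.8%, 7.46 to 36.1% and 52.8 to 88.1%. Median mean percentiles were 67.8 to 71.3, 35.7 to 71.6 and 37.9 to 67.2.

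With the top 50% of peaks by score, 30 sites were shared, 676 were MAML3-only and the share of RARα sites with MAML3 was 29.7%. The share in both RARα RA lists was 83.3% (shared), 90.7% (RARα-only) and 8.73% (MAML3-only), and in both MAML3 RA lists 100%, 27.9% and 93.2%. With lists of equal length, 25, 77 and 96 sites fell in the 3 classes, with 22.9% of RARα sites with MAML3. Under this setting and the one before, a peak below the cut counts as absent. Shares in both RARα RA lists were 88%, 87% and 44.8%, those in both MAML3 RA lists 62.3% for RARα-only and 99% for MAML3-only, and median mean percentiles 85.3 and 96.1. With at least 1 list of each antibody, the classes held 1117, 229 and 5785 sites and the share was 83%. Shares in both RARα RA lists were 33.8%, 29.3% and 1.38%, and in both MAML3 RA lists 89.3% for shared and 52.1% for MAML3-only sites.

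Counting presence in at least 1 RA list gave 94.3%, 92.7% and 19.5% for RARα and 98.1%, 31.7% and 94.8% for MAML3. With the top 50% of RA peaks, shares were 60.4% (shared) and 0.697% (MAML3-only) for RARα and 82.1% and 62.4% for MAML3. MAML3-only sites were in both MAML3 RA lists at 87.1% with peaks up to 1 kb apart joined and 87.9% with RA peaks counted within 1 kb. Requiring an overlap of 50% of the shorter peak left 106, 39 and 1113 sites. No paired analysis was possible because presence in a list gives no test that a replicate block could enter. Shares at transcription starts and gene counts under other windows were not run. Peak lists carry no read counts, so absence from a list does not show absence of binding.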
